A study of Homo sapiens with 8 samples.

Results

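Elongator methionine tRNAs read the methionine codon inside messages, while a separate initiator tRNA with the same CAT anticodon starts each protein. The deposited table of 631 tRNA genes holds 9 elongator Met-CAT genes on chromosome 6. They were chosen by the amino acid, anticodon and chromosome columns, without the initiator genes and without names that begin with nm. The set was proposed with the difference between knockdown and control cells already known, since Met-CAT-5-1 stood out there. Values from that difference are therefore a description, without a test, and support nothing here.

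The libraries are small RNA libraries made from total RNA of HEK293T, an established line derived from human embryonic kidney. Control cells had received a Cas9 plasmid with no guide and are labelled with 100% ADAT2 expression. Knockdown cells are a stable line, described as heterozygous, made with Cas9 and a guide against ADAT2 and labelled with 50% expression. Each group has 2 libraries, numbered 3 and 4 and called control 3, control 4, knockdown 3 and knockdown 4 here, with total counts from 698143 to 1211292. Each group is 1 line, so an effect of ADAT2 and other differences between the lines cannot be told apart. Whether the libraries of a group come from separate cultures is not stated, so a p-value here measures the spread of these libraries alone, and that spread may be technical. In the fit with both group and number as terms, that spread was pooled over genes. The table holds tRNA genes only, so neither the ADAT2 level nor the identity of the cells could be checked. In bulk RNA, fewer cells and less RNA per cell cannot be told apart.

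RNA polymerase III transcribes tRNA genes from promoter elements that lie inside the gene, and many human tRNA genes sit in a large cluster on the short arm of chromosome 6. ADAT2 is the catalytic partner in an enzyme that turns adenosine into inosine at the first anticodon position. The anticodon of methionine tRNAs begins with C, so these tRNAs are not substrates of that reaction. A count here is a read assigned to a gene, whether it came from a whole tRNA, a precursor or a fragment.

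The 9 genes lie in 3 places on chromosome 6 (hg38). The first is a stretch of 98703 bases from 26701483 to 26800185 with 5 of the genes. From left to right it holds Met-CAT-5-1 (26701483 to 26701555, plus strand), Met-CAT-4-1 (26735370 to 26735442, minus), Met-CAT-4-2 (26743263 to 26743335, plus), Met-CAT-4-3 (26766234 to 26766306, plus) and Met-CAT-chr6-167 (26800113 to 26800185, minus). Met-CAT-3-1 (28944575 to 28944647, plus) and Met-CAT-3-2 (28953265 to 28953337, minus) make up the next place. Met-CAT-chr6-80 (57808645 to 57808718, plus) and Met-CAT-7-1 (57842214 to 57842286, minus) make up the last. All 9 lay between the genes annotated in GENCODE v29. Met-CAT-3-1 lay 37 bases from the long non-coding RNA gene LINC01556. The nearest protein-coding gene to the first stretch was ZNF322, at 41730 bases from Met-CAT-5-1 and 140360 bases from Met-CAT-chr6-167. The deposited table marks none of the 9 as having an intron.

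RefSeq has a tRNA gene with the same start and end for 8 of the 9, all but Met-CAT-chr6-80. Gene symbols number tRNA genes by mature sequence, so genes that share the first number are called copies here. This rests on the names, since no sequences were compared. Met-CAT-chr6-167 is TRM-CAT5-2 in RefSeq and so pairs with Met-CAT-5-1, which is TRM-CAT5-1. The genes numbered 4 form a trio of copies, and the genes numbered 3 form another pair. The score deposited with each gene was shared within each set, at 75.06 for the Met-CAT-5 pair, 75.76 for the trio and 76.58 for the genes numbered 3. It was 64.33 for Met-CAT-7-1 and 40.41 for Met-CAT-chr6-80. The sources used here do not say how reads that match several copies were assigned, so the split of counts within a set is uncertain.

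The tRNA genes of the first stretch stand in mirrored order. In the stretch with 30 kb on either side, 18 of 21 tRNA genes had a partner on the opposite strand whose position mirrored their own to within 100 bases, which made 9 pairs. All 9 pairs shared their anticodon and their deposited score. The axis was placed midway between Met-CAT-5-1 and Met-CAT-chr6-167, so the mirrored positions of this pair, which is among the 9, were fixed in advance. Met-CAT-4-1 mirrored Met-CAT-4-3, while Met-CAT-4-2 had no mirrored partner. The gap between Met-CAT-5-1 and the alanine gene Ala-AGC-10-1 on its left was 14153 bases, the same as between Met-CAT-chr6-167 and Ala-AGC-chr6-166 on its right. On their inner sides, Ala-AGC-13-1 lay 3821 bases from Met-CAT-5-1 and Ala-AGC-chr6-168 lay 3831 bases from Met-CAT-chr6-167. The distant Met-CAT-7-1 had like neighbours at like gaps, with Ala-AGC-13-2 at 3791 bases and Ala-AGC-12-3 at 14114 bases. This arrangement was read from the coordinates and uses no counts.

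Reads were found for 7 of the 9 genes in every library. Met-CAT-7-1 had 2 counts in control 4 and 0 in the other libraries. Met-CAT-chr6-80 had 1 count in each knockdown library and 0 in both controls. The limit that a count of 0 allows, 3 counts, was 4.86 CPM in control 3, 2.65 in control 4, 4.07 in knockdown 3 and 1.95 in knockdown 4. CPM here is the read count of a gene per fixed number of reads, computed on library totals adjusted by edgeR's TMM factors so that levels can be compared between libraries. Neither gene was detectable above that limit in any library, and neither passed the filter on low counts. The 7 that passed are all 73 bases long, so their levels do not differ by gene length. The uncertain split of reads within a set still applies to the level and order of single genes.

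Met-CAT-4-1 had the highest level of the 7 in control cells, at 377 ± 21.1 CPM (SD, n = 2, as for the levels that follow). Met-CAT-chr6-167 had 214 ± 105 CPM, Met-CAT-4-3 had 167 ± 16.3, Met-CAT-4-2 had 145 ± 17.6, Met-CAT-3-2 had 119.6 ± 39.5, Met-CAT-5-1 had 112 ± 11.9 and Met-CAT-3-1 had 67.4 ± 5.54. The first and the last gene in this order had both control libraries clear of their neighbour, and all other neighbours overlapped. By the mean over the 4 libraries the 7 ranked from 253 to 410 among the 489 tested tRNA genes, where rank 1 is the highest.

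**Figure D1:**
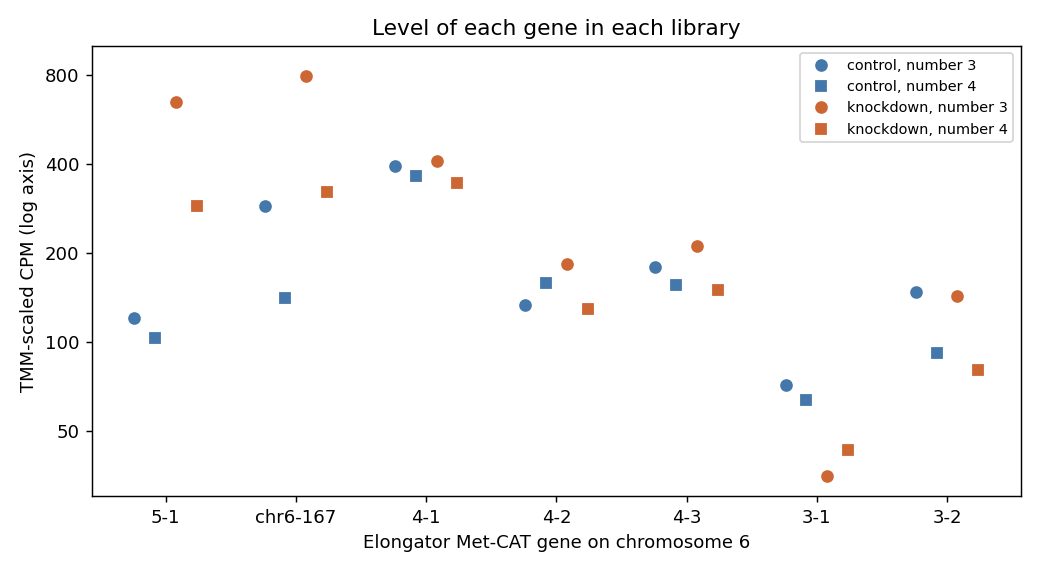
TMM-scaled CPM (log axis) of the 7 elongator Met-CAT genes of chromosome 6 that passed the filter, named by the end of their names; each point is 1 library. Met-CAT-5-1 and Met-CAT-chr6-167 have both knockdown libraries above both controls, and Met-CAT-3-1 has both below.

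Both genes of the Met-CAT-5 pair had more reads in knockdown cells. Met-CAT-5-1 had 74 counts in control 3, 117 in control 4, 475 in knockdown 3 and 443 in knockdown 4. On the CPM scale its level was 112 ± 11.9 in control and 466 ± 252 in knockdown cells. Both knockdown libraries lay above both controls. The log2 fold change was 2.06 ± 0.65 (SE, edgeR), and the log2 ratio of knockdown to control was 2.42 within number 3 and 1.48 within number 4.

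Met-CAT-chr6-167, its mirrored copy, had 178 counts in control 3, 159 in control 4, 584 in knockdown 3 and 492 in knockdown 4. Its level was 214 ± 105 CPM in control and 556 ± 334 CPM in knockdown cells. The groups did not overlap, although the higher control, 289 CPM in number 3, came close to the lower knockdown value, 319.7 CPM in number 4. The log2 fold change was 1.37 ± 0.75, with log2 ratios of 1.45 and 1.19 within numbers 3 and 4.

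The split of reads between these copies varied too. Met-CAT-5-1 gave 29.4% of the pair's reads in control 3 (95% Wilson interval 24.1 to 35.3) and 42.4% in control 4 (36.7 to 48.3). It gave 44.9% in knockdown 3 (41.9 to 47.9) and 47.4% in knockdown 4 (44.2 to 50.6). The controls lay further from each other than control 4 from either knockdown library, and the intervals of control 4 and the knockdown libraries overlapped. Met-CAT-chr6-167 held the larger share in each library, although in knockdown 4 the interval of its 52.6% ran from 49.4 to 55.8. These intervals and limits cover counting error alone, because PCR reads that carry no molecular identifier are not independent molecules.

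The trio numbered 4 had overlapping groups on the TMM scale. Met-CAT-4-1 had 242 counts in control 3, 411 in control 4, 302 in knockdown 3 and 530 in knockdown 4, with mean levels of 377 CPM in both groups. Met-CAT-4-2 had 82, 179, 135 and 199 counts in the same order, with means of 145 CPM in control and 156 CPM in knockdown cells. Met-CAT-4-3 had 110, 176, 155 and 230 counts, with means of 167 and 179.8 CPM.

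All 3 genes of the trio had a positive log2 ratio in number 3 and a negative one in number 4, of 0.06 and −0.07 for Met-CAT-4-1, 0.46 and −0.29 for Met-CAT-4-2 and 0.23 and −0.06 for Met-CAT-4-3. The signs in number 4 depended on the scaling for Met-CAT-4-1 and Met-CAT-4-3, while Met-CAT-4-2 stayed negative at −0.17 and −0.03. With DESeq2's size factors the ratios in number 4 were 0.05 for Met-CAT-4-1 and 0.07 for Met-CAT-4-3, and with library totals they were 0.19 and 0.21. The sign of Met-CAT-4-1 in number 3 changed as well with library totals, to −0.01. On library totals the groups of Met-CAT-4-3 did not overlap, with CPM of unscaled totals of 158 in control 3, 164 in control 4, 176 in knockdown 3 and 189.9 in knockdown 4. Library totals moved the median log2 fold change of all tested genes from −0.03 to 0.11. Within the trio Met-CAT-4-1 gave between 51.0% and 55.8% of reads in the 4 libraries, and its mirrored copy Met-CAT-4-3 between 23.0% and 26.2%.

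Of the pair numbered 3, Met-CAT-3-1 was lower in knockdown cells. It had 44 counts in control 3, 72 in control 4, 26 in knockdown 3 and 66 in knockdown 4, at levels of 71.3, 63.5, 35.2 and 42.9 CPM. Both knockdown libraries lay below both controls. The log2 fold change was −0.78 ± 0.65, with ratios of −1.01 and −0.57 in numbers 3 and 4. Met-CAT-3-2 had 91 counts in control 3, 104 in control 4, 105 in knockdown 3 and 123 in knockdown 4, and its groups overlapped at 119.6 ± 39.5 and 111 ± 44.1 CPM. Met-CAT-3-1 gave 32.6% of this pair's reads in control 3, 40.9% in control 4, 19.8% in knockdown 3 and 34.9% in knockdown 4. The intervals of control and knockdown overlapped within each number.

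Across the table, edgeR's quasi-likelihood test on the 4 libraries called 0 of 489 genes between groups (0% at an adjusted p under 0.05) and so 0 of the 7. An unadjusted p under 0.05 was found for 1 gene of the 489, Met-CAT-5-1 itself, and DESeq2 called 0 of 574 genes. Both knockdown libraries lay above both controls for 2 of the 7 and for 5.11% of all tested genes. They lay below both controls for 1 of the 7 and for 7.98% of all tested genes. With the replicate number as a term in edgeR's test, 2 of the 7 were called higher, the Met-CAT-5 pair, beside 5.32% of all tested genes. That background was 9.61% with DESeq2's size factors and 10.8% with library totals. The same fit called 1 of the 3 elongator Met-CAT genes on other chromosomes and 14 of the 160 other tested genes on chromosome 6 higher. The median log2 fold change was 0.10 for the 7, 0.09 for the 160 other tested genes on chromosome 6 and −0.03 for all tested genes. Nothing is read from these counts, since the genes were proposed with this difference in view.

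**Figure D2:**
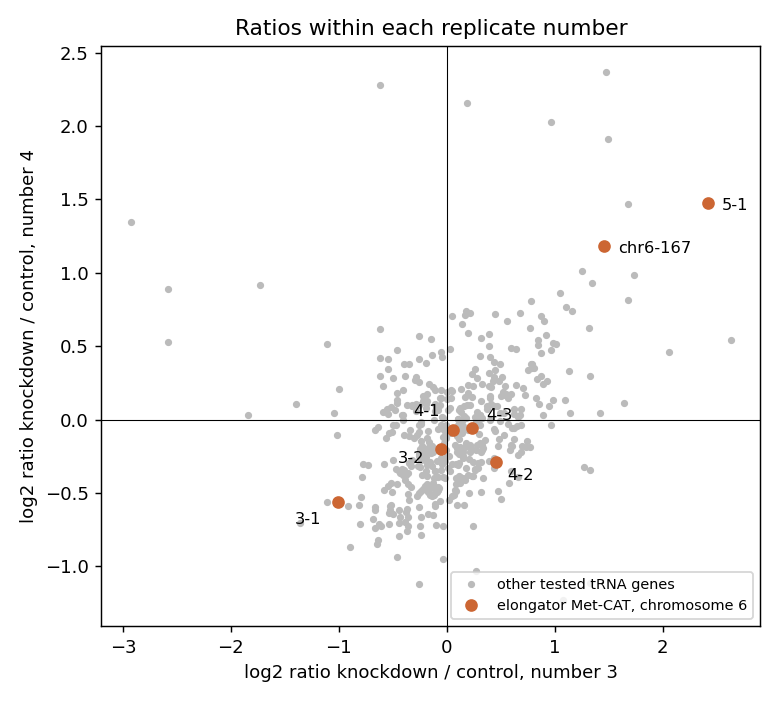
Log2 ratio of knockdown to control within replicate number 3 (horizontal) and number 4 (vertical) for the 489 tested tRNA genes; labelled points are the 7 elongator Met-CAT genes of chromosome 6. Met-CAT-5-1 (2.42 and 1.48) and Met-CAT-chr6-167 (1.45 and 1.19) lie at the upper right, Met-CAT-3-1 (−1.01 and −0.57) at the lower left, and the other 4 between −0.29 and 0.46.

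Summed, the 9 genes took 0.118% of all counts in control 3 (95% Wilson interval 0.110 to 0.126) and 0.114% in control 4 (0.108 to 0.121). They took 0.203% in knockdown 3 (0.194 to 0.213) and 0.172% in knockdown 4 (0.165 to 0.180). The groups did not overlap, and the means were 0.116 ± 0.00253% and 0.187 ± 0.0218% (SD, n = 2). Most of this difference lay in the Met-CAT-5 pair, which took 0.0361% in control 3, 0.0258% in control 4, 0.121% in knockdown 3 and 0.0772% in knockdown 4.

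Without that pair the other 7 genes took 0.0815% of counts in control 3, 0.0882% in control 4, 0.0824% in knockdown 3 and 0.0949% in knockdown 4. The intervals overlapped in number 3, from 0.0751 to 0.0885 in the control and from 0.0766 to 0.0886 in the knockdown library. They overlapped in number 4 as well, from 0.0828 to 0.0940 and from 0.0895 to 0.1005. A difference in the summed share of these 7 genes was not detectable at this depth within either number.

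Shares of the 9 genes' own reads need no scaling between libraries. Of these reads the Met-CAT-5 pair gave 30.7% in control 3, 22.6% in control 4, 59.4% in knockdown 3 and 44.9% in knockdown 4. The trio numbered 4 gave 52.9%, 62.8%, 33.2% and 46.0% in the same order, and the pair numbered 3 gave 16.4%, 14.4%, 7.35% and 9.07%. These shares divide a fixed total, so a larger share of the Met-CAT-5 pair lowers the shares of the other sets. A lower share of the trio is by itself no lower level, and on the TMM scale its groups overlapped. The trio held the most reads in both controls and the Met-CAT-5 pair in knockdown 3. In knockdown 4 the intervals of the trio and the Met-CAT-5 pair overlapped, from 43.9 to 48.2 and from 42.7 to 47.0.

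**Figure D3:**
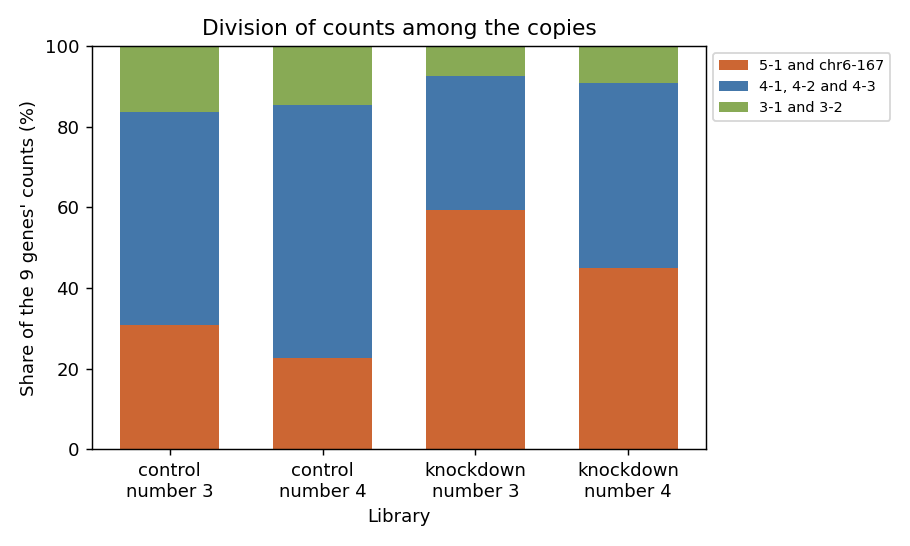
Share, in percent, of the reads of the 9 elongator Met-CAT genes of chromosome 6 that fell on each set of copies, in each of the 4 libraries. The bottom segment, Met-CAT-5-1 with Met-CAT-chr6-167, holds 30.7% in control 3, 22.6% in control 4, 59.4% in knockdown 3 and 44.9% in knockdown 4.

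The other methionine tRNA genes were set beside these. The 3 elongator genes on other chromosomes took 0.0563% of counts in control 3, 0.112% in control 4, 0.0633% in knockdown 3 and 0.143% in knockdown 4. Their groups overlapped, and number 4 lay above number 3 in each group. Their log2 ratios of knockdown to control ran from −1.04 to 0.84, and Met-CAT-1-1 was the 1 gene of the 3 with positive ratios in both numbers, at 0.84 and 0.50, and the 1 called in the fit with the replicate number. The 10 initiator genes took 0.278% in control 3, 0.345% in control 4, 0.214% in knockdown 3 and 0.333% in knockdown 4, and these sums overlapped between groups too. Of the 9 initiator genes tested, 4 had both knockdown libraries below both controls, beside 7.98% of all tested genes. Of all methionine tRNA reads, the 9 genes on chromosome 6 gave 26.0% in control 3, 19.97% in control 4, 42.3% in knockdown 3 and 26.6% in knockdown 4. The intervals of control 3 and knockdown 4 overlapped, from 24.5 to 27.6 and from 25.6 to 27.6. Of the elongator reads the 9 genes gave 67.6%, 50.4%, 76.2% and 54.7% in the same order. These groups overlapped, with control 3 above knockdown 4.

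Within 150 kb of Met-CAT-5-1 lay 25 tRNA genes that are not elongator Met genes, and 23 of them had enough counts. Of these 23, 0 had knockdown libraries wholly above or wholly below the controls, beside 5.11% and 7.98% of all tested genes. Positive ratios in both numbers were found for 12 of the 23, beside 133 of all 489 tested genes and 62 of the 160 other tested genes on chromosome 6. The median log2 ratio of the 23 was 0.12 in number 3 and 0.22 in number 4, beside 0.03 and −0.09 for all tested genes. Most of the 23 were Ala-AGC, Ile-AAT or Pro-AGG genes, whose anticodons begin with A. The part of this make-up in the ratios was not tested. Single ratios among the 23 ran from −0.62 to 2.06. The highest came from Ala-AGC-10-1 in number 3, with 0 counts in the control and 2 in the knockdown library.

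The alanine genes Ala-AGC-9-1 and Ala-AGC-9-2 mirror each other and lie next to Met-CAT-4-1 and Met-CAT-4-3, at gaps of 4763 and 4773 bases. Ala-AGC-9-1 had 298 counts in control 3, 181 in control 4, 851 in knockdown 3 and 496 in knockdown 4, with log2 ratios of 1.25 and 1.01. Ala-AGC-9-2 had 278, 193, 848 and 500 counts in the same order, with ratios of 1.35 and 0.93. Their groups overlapped, with control 3 above knockdown 4. The isoleucine gene Ile-AAT-6-1, on the other side of Met-CAT-4-3, had ratios of 0.12 and 0.08, and Ala-AGC-21-1 beside Met-CAT-4-2 had too few counts.

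Of the genes beside the pair numbered 3, the lysine gene Lys-TTT-3-3 between them had ratios of −0.26 and −0.31. The leucine gene Leu-AAG-2-2 had 0.53 and −0.11, and the phenylalanine gene Phe-GAA-1-2 had 1.27 and −0.33. Beside Met-CAT-chr6-80, Ile-AAT-chr6-79 had −0.59 and 0.23 and Ala-AGC-chr6-97 had 0.41 and 0.16. These neighbours had no common direction.

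**Figure D4:**
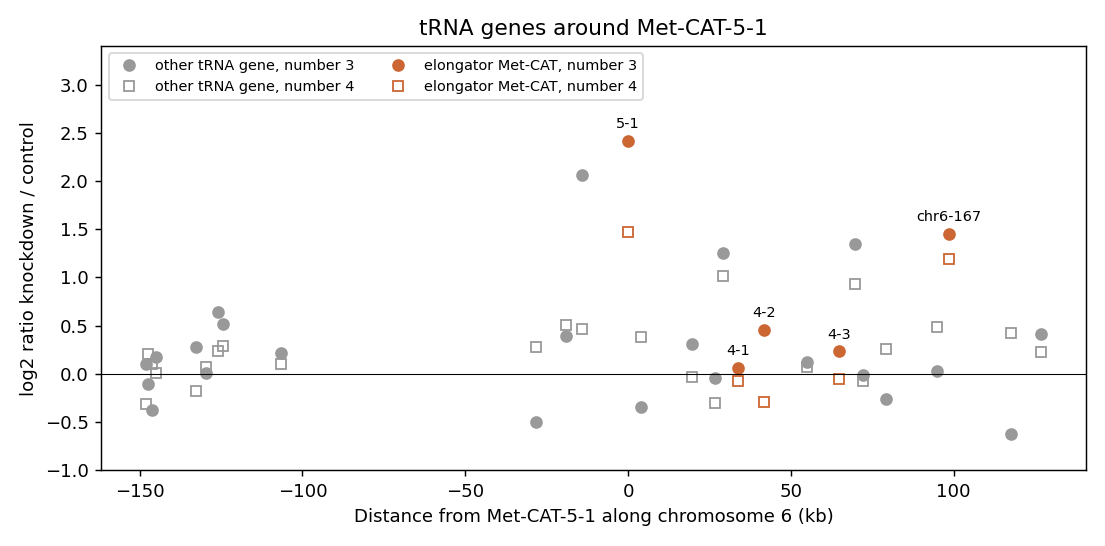
Log2 ratio of knockdown to control for each tested tRNA gene within 150 kb of Met-CAT-5-1, by distance in kb along chromosome 6; filled circles are number 3 and open squares number 4. Met-CAT-5-1 and Met-CAT-chr6-167 have both symbols above 1, and the Met-CAT-4 genes between them lie between −0.29 and 0.46.

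The difference between replicate numbers had no part in choosing the genes, but it uses the same libraries. Met-CAT-5-1, which stood out by its knockdown values, went from 120 CPM in control 3 to 103 in control 4. In knockdown cells it went from 644 CPM in number 3 to 288 in number 4. Its fold change between numbers is therefore not independent of the values that put the set forward. The same limit applies to its copy Met-CAT-chr6-167, because the split of reads between the copies is uncertain. In edgeR's test with the group as the other term, 3 of the 7 fell in number 4 relative to number 3, beside 37.4% of all tested genes. Of the 7, 0 rose, beside 40.3% of all tested genes. The single positive fold change among the 7, of Met-CAT-3-1, had an adjusted p of 0.909 in edgeR (unadjusted 0.902) and of 0.933 in DESeq2. Met-CAT-chr6-167 fell by 1.19 ± 0.19 on the log2 scale (SE; edgeR adjusted p = 5.09e-09). Met-CAT-5-1 fell by 0.78 ± 0.20 (edgeR adjusted p = 0.000295) and Met-CAT-3-2 by 0.76 ± 0.23 (edgeR adjusted p = 0.00188). On the TMM scale each of these genes was lower in number 4 within both groups. On library totals Met-CAT-5-1 was not lower in control 4 than in control 3. The fit with both terms had 1 residual degree of freedom, and edgeR's prior degrees of freedom were infinite. Its SE and p-values therefore rest on a spread pooled over genes, not on the spread of each gene.

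The 4 other genes did not pass this test. Met-CAT-4-3 had a log2 fold change of −0.35 ± 0.21, Met-CAT-4-1 of −0.18 ± 0.19, Met-CAT-4-2 of −0.14 ± 0.22 and Met-CAT-3-1 of 0.04 ± 0.30. Met-CAT-3-2 was called and its copy Met-CAT-3-1 was not, but the difference between these copies was not tested. With library totals in place of TMM the median over all tested genes moved from 0.01 to 0.44. Met-CAT-chr6-167 kept its call then, at −0.74 (edgeR adjusted p = 0.000110), while Met-CAT-5-1 at −0.32 (0.118) and Met-CAT-3-2 at −0.33 (0.197) lost theirs, and all 3 genes of the trio turned positive, at 0.09 to 0.29.

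Fits without 1 library had to drop the group term as well, so the difference between groups enters them and the part of the left-out library alone was not tested. Met-CAT-5-1 had a log2 fold change of 0.69 without knockdown 3 (edgeR adjusted p = 0.0837) and −0.25 without control 4 (0.570). It had −1.59 without control 3 (edgeR adjusted p = 1.19e-06) and −1.90 without knockdown 4 (2.79e-05). Met-CAT-chr6-167 had −0.35 without knockdown 3 (edgeR adjusted p = 0.329) and −0.60 without control 4 (0.161), and it kept its call without either of the other libraries, at −1.66 and −1.95.

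**Figure D5:**
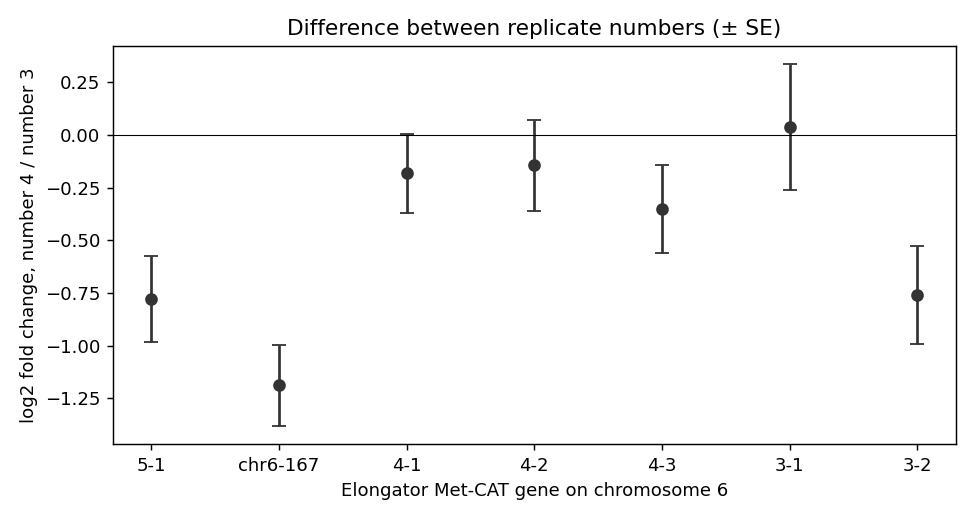
Log2 fold change of number 4 against number 3 for the 7 elongator Met-CAT genes of chromosome 6, with the group as the other term. Bars are SE from edgeR, based on a spread pooled over genes. Met-CAT-chr6-167 (−1.19), Met-CAT-5-1 (−0.78) and Met-CAT-3-2 (−0.76) passed the test under TMM scaling and the other 4 did not.

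The genes outside the set most like Met-CAT-5-1 were sought by the Euclidean distance between log2 CPM profiles over the 4 libraries, each centred on its own mean, among the 482 tested genes outside the set. The nearest was the threonine gene Thr-AGT-4-1 on chromosome 6 (27726694 to 27726767) at a distance of 0.52, with 8 counts in control 3, 10 in control 4, 32 in knockdown 3 and 39 in knockdown 4. Thr-AGT-3-1 (28726018 to 28726091) followed at 1.06 and the arginine gene Arg-TCG-4-1 (26299677 to 26299749) at 1.11, both also on chromosome 6. That chromosome holds 160 of the 482 genes compared. Within the set, the copy Met-CAT-chr6-167 lay at 0.86 and the 5 others between 1.92 and 2.91. For the summed counts of the 9 genes the nearest were Thr-AGT-2-2 at 0.19, the valine gene Val-TAC-3-1 on chromosome 10 at 0.22 and the isoleucine gene Ile-AAT-8-1 at 0.30. The threonine and isoleucine genes named here have anticodons that begin with A, and the part of this was not tested. These distances are a description over 4 libraries, and the profile of Met-CAT-5-1 holds the difference by which the set was proposed.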

How the data were processed

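Small RNA libraries of HEK293T cells were compared, 2 per group; each is labelled as 2 lanes of 1 library code. The authors deposited whole-number read counts per tRNA gene, with 1 column per code. The submitters' processing notes name Bowtie2 2.2.2, hg38 and GRCh38, and a name in the labels gives summarizeOverlaps. The handling of mismatches, strand and reads matching several genes is not stated. The score of each gene was used as the authors deposited it.

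Here edgeR 4.0.16 (R 4.3.3) tested all genes together. filterByExpr (minimum count 10) kept 489 genes, totals were scaled by TMM, and glmQLFTest p-values were adjusted by Benjamini-Hochberg at 0.05. An SE is the log2 fold change over the root of F. Ratios within a number add 0.5 to each count before scaling. Shares have 95% Wilson intervals. The script was tested on simulated data. DESeq2 1.42.0, other scalings, no filter, summed copies and left-out libraries were alternatives. RefSeq (GRCh38.p14) matched 424 genes by position. Named genes were all 9, their nearest tRNA neighbours, the other methionine genes as sums or ranges, and the 3 nearest profiles. The distances within the set, the levels on library totals, the mirrored order, the window around Met-CAT-5-1, the value of Met-CAT-1-1 and the sums without the Met-CAT-5 pair were added after seeing values. Sequences were not used here. The genes and lists were chosen with earlier results of these data known.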

Additional observations from a re-analysis of the deposited data

How the results depend on the processing

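Between groups, 0 genes were called by edgeR under each scaling, without a filter, with summed copies and without each library, and by DESeq2. With the replicate number as a term (replicate block) 39 were called under TMM, 61 with DESeq2's size factors and 76 with library totals, scalings of this fit added after seeing the data. The labels do not tie a number to a batch. Libraries that share a number lay on the same side of their group means (r = 0.924 over 489 genes), which with 2 numbers is a hint from the data and no pairing by design. That fit has 1 residual degree of freedom and, under TMM, infinite prior degrees of freedom, so its calls rest on a spread pooled over genes. Its log2 fold changes over the 3 scalings were 1.93 to 2.03 for Met-CAT-5-1 and 1.32 to 1.42 for Met-CAT-chr6-167, given as a description since this difference chose the genes.

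Over all alternatives the log2 fold change between groups ran from 1.42 to 2.53 for Met-CAT-5-1 and from 0.61 to 1.98 for Met-CAT-chr6-167. For Met-CAT-3-1 it ran from −0.93 to −0.60, and the pair numbered 3 had −0.33 with its copies summed. For Met-CAT-4-3 it ran from −0.11 to 0.34 without single libraries. The knockdown excess in the share of the 9 genes, 0.0717 percentage points of all counts, was 0.0562 to 0.0871 without single libraries and 0.0904 for the elongator genes of every chromosome. It was 11.4 percentage points of methionine tRNA counts, with 16.2 within number 3 and 6.60 within number 4. Without the Met-CAT-5 pair it was 0.00376 percentage points of all counts, an alternative chosen after seeing the data. Between numbers, calls went from 380 of 489 genes to 249 of 319 with summed copies, where fewer units are tested, to 333 of 574 with DESeq2 and to between 264 of 491 and 303 of 501 without single libraries. Without single libraries the fold change of Met-CAT-5-1 between numbers ran from −1.90 to 0.69. Of 10 alternatives, the calls between numbers were lost in 6 for Met-CAT-3-2, 3 for Met-CAT-5-1 and 2 for Met-CAT-chr6-167. In 4 of the 6, Met-CAT-3-2 still had a fold change of −0.63 to −0.76, and 3 of these 4 also dropped the group term. At this depth, nothing can be said of Met-CAT-7-1 and Met-CAT-chr6-80.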
